A study of Aspergillus niger with 11 samples.

Results

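The tricarboxylic acid cycle, the glyoxylate bypass and the reactions that fill or drain the oxaloacetate pool were followed through 9 genes of Aspergillus niger, chosen by locus name out of 10445 genes in the deposited tables. All 9 loci were present in the tables. This filamentous fungus, strain DS03043, was fed in a 5 L fermenter kept at 34 °C, pH 4.5 and an overpressure of 0.05 MPa, with stirring at 375 rpm and aeration at 1 vvm (volumes of air per volume of broth and minute). The groups were the exponential phase (18 h, n = 3), the transitional phase or early stage of oxygen limitation (24 h, n = 3), the middle oxygen-limited phase (42 h, n = 3) and the late oxygen-limited phase (66 h, n = 2). Every library carries the label of an oxygen-limited fermentation and no culture with ample oxygen at the later times was analysed, so oxygen supply, culture age and feeding cannot be told apart. The labels list the sampling times for the series as a whole, and each phase was given its time by following their order. Nothing in the labels says that replicates came from separate cultures, so all p-values rest on a spread between samples that may be technical.

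In the cycle, citrate synthase joins acetyl-CoA to oxaloacetate, and the citrate formed is turned by aconitase into isocitrate. Isocitrate is then either oxidized by isocitrate dehydrogenase or split by isocitrate lyase, whose product glyoxylate is joined to acetyl-CoA by malate synthase. This bypass skips the steps that release carbon dioxide and is known in fungi for growth on acetate and fatty acids. Pyruvate carboxylase makes oxaloacetate from pyruvate and so refills the cycle, while phosphoenolpyruvate (PEP) carboxykinase turns oxaloacetate into PEP and opens the way to new sugar. Aspergillus niger is the organism of industrial citric acid production, where these steps have long been studied. The reference table gave symbols for 3 of the 9 loci, which were citA, icdA and pyc. The other enzyme names came with the list of loci and are not in that table. It holds no product names, so other loci that may encode the same enzymes were not analysed here.

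The values are FPKM, fragments per length of transcript and per mapped fragments of the library, and levels can therefore be set side by side between genes. The libraries summed to 968822 to 1100826 FPKM and had 5399 to 5959 genes above 0. The mean level of the 9 genes over all libraries ran from 14.5 FPKM for PEP carboxykinase to 179.9 FPKM for isocitrate lyase. Between 58.1% and 91.7% of all genes had a lower mean. The number of reads behind a value could be read from the values themselves, since each was a whole multiple of the FPKM that 1 read is worth in that library. All 99 values of the 9 genes came to whole reads within a tolerance of 0.1. The FPKM per read was chosen for each gene to make its low values whole, so this is no check of the reads. Such a unit was found for 88.3% of 5381 genes above 0 in at least 6 libraries, against 9.4% after random scaling of each value. The median was 6 reads per value, and 76 of the 99 values rested on at most 10 reads. Of the 9 genes, 7 were above 0 in all 11 libraries, whereas icdA was above 0 in 7 and PEP carboxykinase in 6. All 9 passed the filter of at least 1 FPKM in at least 2 libraries.

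**Figure D1:**
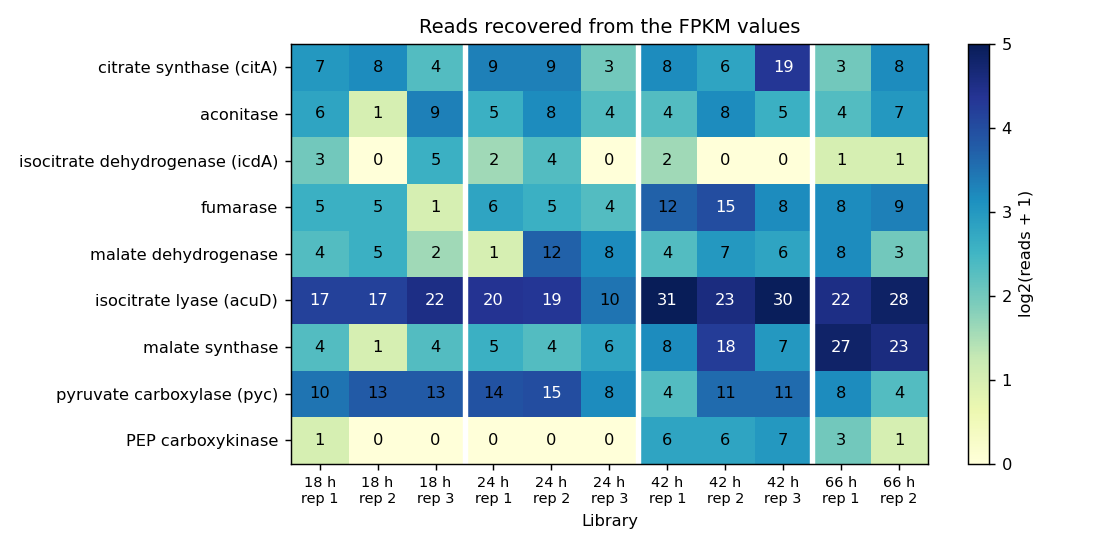
Number of reads recovered for each of the 9 enzymes (rows) in each of the 11 libraries (columns, by time and replicate), with the colour on a log2(reads + 1) scale. Isocitrate lyase had 10 to 31 reads, malate synthase rose to 27 and 23 reads at 66 h, and PEP carboxykinase had 6, 6 and 7 reads at 42 h against 0 in every 24 h library.

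Most of the 9 genes showed no difference between the times beyond the spread between replicates. In 54 tests, of 9 genes in 6 pairs of times, 3 passed the threshold, all of them rises (limma on log2(FPKM + 1), Benjamini-Hochberg adjusted p under 0.05 over 8693 genes). PEP carboxykinase rose at 42 h against 18 h and against 24 h, and malate synthase rose at 66 h against 18 h. The F test over the 4 times called 1 of the 9, PEP carboxykinase, and 8.03% of all genes. By pair, 0 of 9 were called at 24 h against 18 h (1.5% of all genes), 1 at 42 h against 18 h (6%), 1 at 66 h against 18 h (6.04%) and 1 at 42 h against 24 h (4.66%). At 66 h, 0 of 9 were called against 24 h (5.53%) and 0 against 42 h (0.426%). Without adjustment, limma gave p under 0.05 against 18 h for 0 of the 9 at 24 h (11.9% of all genes), 3 at 42 h (18.1%) and 2 at 66 h (18.7%). Against 24 h it did so for 1 at 42 h (17.0%) and 3 at 66 h (18.3%), and for 0 at 66 h against 42 h (6.56%). Weighting the recovered reads with voom called 0 of the 9 at 24 h against 18 h, where it called 123 of 8059 genes. It called 1 of the 9 at 42 h against 18 h (653 of 8059 genes), 1 at 66 h against 18 h (764) and 1 at 42 h against 24 h (492). It called 1 of the 9 at 66 h against 24 h (644 of 8059 genes) and 0 at 66 h against 42 h (11 of 8059). The voom weights were chosen after seeing the data. One call among 9 genes is close to the share of all genes called, and nothing particular to this set is read from it.

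The groups did not overlap for 1 of 9 genes at 24 h against 18 h, where the share over all genes tested was 13.2%. At 42 h against 18 h they did not overlap for 4 of 9 (21.7% of all genes), and at 66 h against 18 h for 3 of 9 (30.6%). The counts were 3 of 9 at 42 h against 24 h (19.7%), 3 of 9 at 66 h against 24 h (29.1%) and 2 of 9 at 66 h against 42 h (18.2%). Fumarase, pyruvate carboxylase, malate synthase and PEP carboxykinase account for all of these. Against 18 h the median log2 fold change of the 9 was 0.16 for 24 h, 0.37 for 42 h and 0.01 for 66 h, beside medians over all genes of 0.04, -0.01 and 0.00. The 9 transcripts summed to 472 ± 43.7 FPKM at 18 h, 577 ± 169 at 24 h and 646 ± 45.4 at 42 h (SD over 3 libraries each), and to 562 ± 17.4 at 66 h (SD over 2 libraries). In bulk RNA of frozen broth, fewer cells of a kind and less RNA per cell cannot be told apart.

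**Figure D2:**
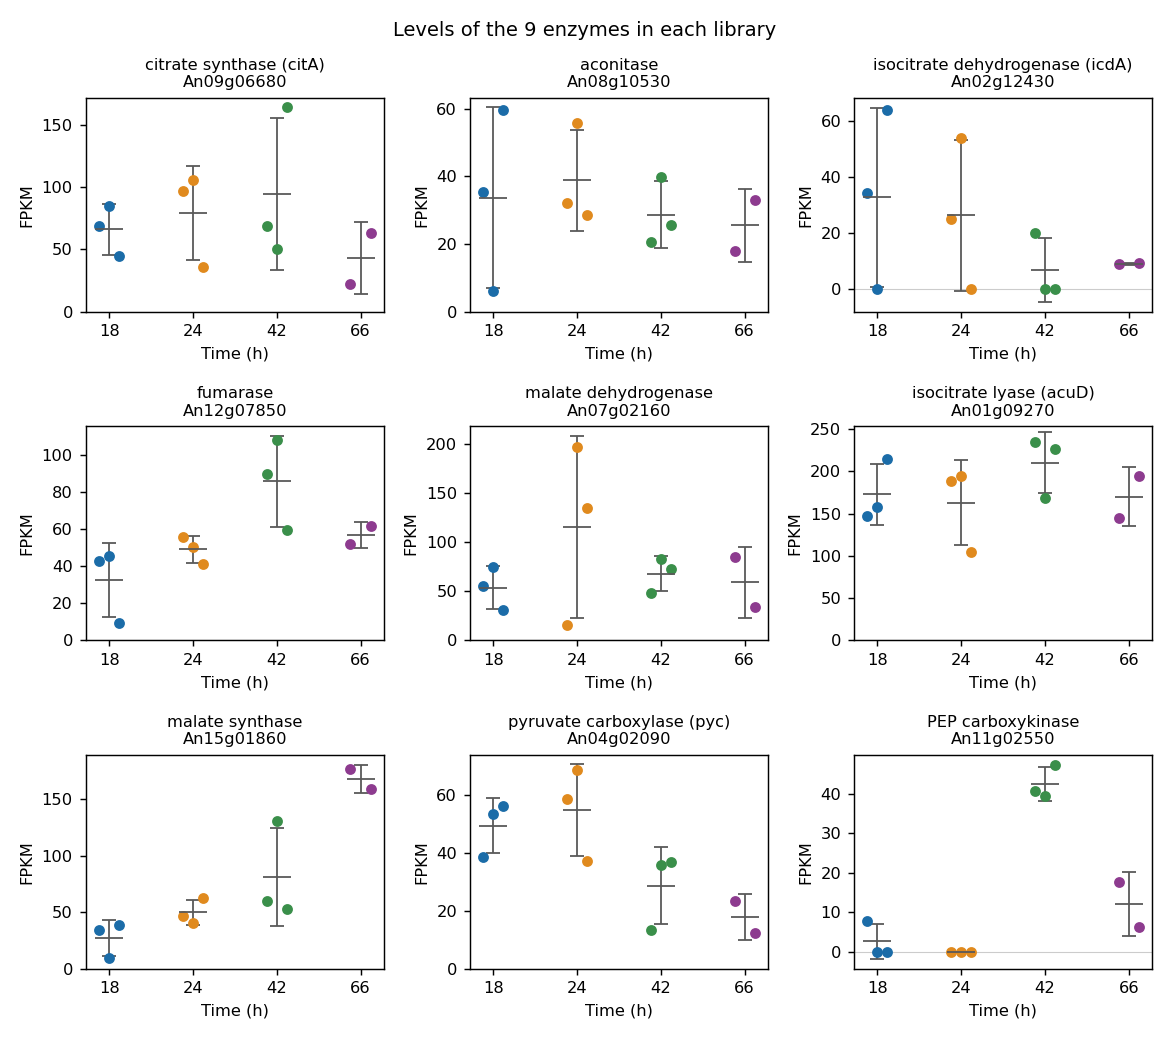
Level of each of the 9 enzymes in FPKM (y axis, scaled per panel) at 18, 24, 42 and 66 h. Points are libraries, and the bar with whiskers is the mean ± SD (n = 3, and n = 2 at 66 h). Malate synthase is highest in the 66 h libraries (159 and 177 FPKM), and PEP carboxykinase in the 42 h libraries (39.3 to 47.4 FPKM).

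PEP carboxykinase (An11g02550) was the gene with the clearest difference, listed at 0 in 5 of 6 early libraries and above 39 FPKM in all 3 of 42 h. It was listed at 7.74, 0 and 0 FPKM in the 18 h libraries and at 0 in all 3 libraries of 24 h. It then stood at 40.6, 39.3 and 47.4 FPKM at 42 h and at 17.7 and 6.23 FPKM at 66 h. All 42 h libraries lay above every library of the other times, and the 66 h libraries lay above those of 24 h but on both sides of the highest 18 h value. In reads this was 1 read over the 18 h libraries, 0 over the 24 h libraries, 19 over the 42 h libraries and 4 over the 66 h libraries. The 0 reads at 24 h allow a level of up to 8.97 FPKM (3 reads over the group), so the mean of the 42 h libraries was at least 4.73-fold higher. This bound leaves out the counting error of the 19 reads at 42 h, whose exact 95% interval was 25.5 to 66.2 FPKM, and the exact 95% upper limit at 24 h was 11.03 FPKM. Against the single read at 18 h the 42 h level was 15.5-fold higher, with an exact 95% interval of 2.46 to 643 that covers counting error only. The 42 and 66 h libraries were also deeper, at 1.38 to 1.59 times the shallowest library against 1 to 1.21 times at 18 and 24 h. These folds are per unit of depth, and the floor at 24 h was set with the depth of those libraries.

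The fitted rise of PEP carboxykinase on the log2(FPKM + 1) scale was 5.44 at 42 h against 24 h and 4.39 against 18 h, with a standard error of 1.15 for each, and limma gave Benjamini-Hochberg adjusted p of 0.0224 and 0.0493. These sizes depend on the pseudocount, with log2 fold changes from 2.39 to 8.73 against 24 h and from 2.11 to 6.63 against 18 h over 20 alternative settings. The call against 24 h was lost without 24 h replicate 2 or 3 or without any 42 h library (adjusted p 0.0519 to 0.0609). The call against 18 h was lost without any one library except 18 h replicate 1, the only early library with a read (0.0513 to 0.125). A pseudocount of 0.1 (0.0994), testing without the filter on low values (0.0589) and a fit to the 18 and 42 h libraries alone (0.0685) ended it too. So did adding the replicate number to the fit as a block (0.0782). The F test, at an adjusted p of 0.0397, lost its call without any one library except 18 h replicate 1 (0.0547 to 0.0892) and with a pseudocount of 0.1 (0.0698). Without 18 h replicate 1 the adjusted p were 0.0192 for 42 h against 18 h and 0.0175 in the F test. With the replicate block the F test gave 0.0779, and its call was lost.

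At 66 h PEP carboxykinase averaged 12.0 ± 8.11 FPKM (SD over 2 libraries), without overlap with the 42.4 ± 4.31 FPKM of 42 h (SD over 3). The log2 difference of -1.90 (SE 1.29) missed the threshold, with a Benjamini-Hochberg adjusted p of 0.943 by limma, as did that of 66 h from 18 h (0.354). In the order of the means, from 24 h over 18 h and 66 h to 42 h, no neighbouring pair was called. The variance of PEP carboxykinase within the groups was 0.569 times that of counting error alone. The 24 h libraries, with no read, are left out of this value. With 1 read at 18 h and 4 at 66 h, it could hardly show extra variance.

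Pyruvate carboxylase (pyc, An04g02090), the cytosolic enzyme that makes oxaloacetate from pyruvate in this fungus, had lower values at the 2 later times. It stood at 38.5, 53.6 and 56.4 FPKM at 18 h and at 58.8, 68.6 and 37.3 FPKM at 24 h. The later values were 13.5, 35.8 and 37.0 FPKM at 42 h and 23.5 and 12.4 FPKM at 66 h. Every library of 42 and 66 h lay below every library of 18 and 24 h, although the highest 42 h value (37.0) and the lowest 24 h value (37.3) were nearly the same. The log2 fold change of 66 h was -1.46 against 18 h (95% interval -2.89 to -0.03) and -1.58 against 24 h (-3.02 to -0.15), and neither was called (limma, Benjamini-Hochberg adjusted p = 0.256 and 0.22). The intervals at 42 h were -2.15 to 0.41 against 18 h and -2.27 to 0.29 against 24 h, so that no change and a fall of over 4-fold both lay within the spread. Over the groups, pyc rested on 36, 37, 26 and 12 reads in the order of the times.

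The balance of pyc and PEP carboxykinase, which work in opposite directions around oxaloacetate, was compared within libraries. The log2 ratio of pyc over PEP carboxykinase, computed on FPKM + 1, started from 2.18, 5.77 and 5.84 at 18 h, and its values at 24 h were 5.90, 6.12 and 5.26. The 42 h libraries gave -1.53, -0.13 and -0.35, and the 66 h libraries 0.39 and 0.89. In 5 of the 6 early libraries PEP carboxykinase had no read, so the values of 5.26 to 6.12 are set by the pseudocount of 1 FPKM and give no size to the ratio. Over the groups, the exact 95% upper limit of PEP carboxykinase was 15.3 FPKM at 18 h and 11.03 FPKM at 24 h, beside pyc means of 49.5 and 54.9 FPKM. The 42 h libraries had higher FPKM for PEP carboxykinase than for pyc, and the 66 h libraries somewhat higher FPKM for pyc. The exact 95% intervals of the groups overlapped, with 25.5 to 66.2 FPKM for PEP carboxykinase and 18.9 to 42.3 for pyc at 42 h. At 66 h they were 3.30 to 31.0 and 9.35 to 31.6 FPKM, so these few reads do not settle the order. This ratio and those with isocitrate lyase were chosen after their values were seen, and they are given as descriptions with no test.

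**Figure D3:**
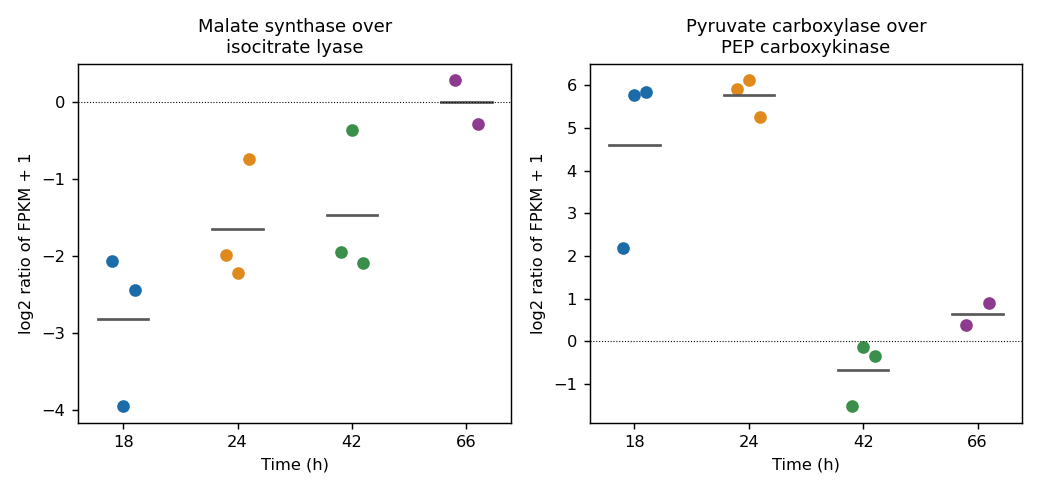
Log2 ratio of FPKM + 1 between 2 enzymes within each library, by time in hours. Points are libraries and short lines are means, and the dotted line marks equal levels. Malate synthase over isocitrate lyase (left) averages -2.82 at 18 h and 0.00 at 66 h, and pyc over PEP carboxykinase (right) lies at 2.18 to 6.12 in the early libraries, where 5 of 6 had no PEP carboxykinase read and the pseudocount sets the value, and at -1.53 to 0.89 in the later ones.

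Isocitrate lyase (acuD, An01g09270), the first enzyme of the glyoxylate bypass, was the most abundant of the 9 transcripts and showed no call at any time. It had the highest FPKM of the 9 in 8 of 11 libraries and was second in the others. It stood at 147, 158 and 214 FPKM at 18 h and at 189, 195 and 105 FPKM at 24 h. The later libraries had 235, 169 and 227 FPKM at 42 h and 145 and 195 FPKM at 66 h. The groups overlapped in every pair of times. With 10 to 31 reads per library it was also the most precisely measured, with a log2 fold change of 0.28 at 42 h against 18 h (95% interval -0.44 to 1.00) and of -0.02 at 66 h against 18 h (-0.83 to 0.79). Changes of more than about 2-fold against 18 h in either direction thus lay outside these intervals, and smaller ones could not be seen at this depth.

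Malate synthase (An15g01860), the second enzyme of the bypass, had its highest values at 66 h, where it was called against 18 h alone in the main fit. It stood at 34.4, 9.23 and 38.8 FPKM at 18 h and at 46.9, 40.9 and 62.6 FPKM at 24 h. At 42 h it was at 60.2, 131 and 52.7 FPKM, and at 66 h at 177 and 159 FPKM. Both 66 h libraries lay above every other library, and all 24 and 42 h libraries lay above those of 18 h, while the 24 and 42 h groups overlapped. The mean was 27.5 ± 15.9 FPKM over the 3 libraries of 18 h and 168 ± 12.6 over the 2 of 66 h (± SD). The rise was 2.80 in log2, with a standard error of 0.66 and a Benjamini-Hochberg adjusted p of 0.0319 by limma. The reads behind these means were 9 at 18 h and 50 at 66 h, a 6.14-fold difference per unit of depth with an exact 95% interval of 2.99 to 14.2 for counting error only.

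The malate synthase call was lost without 18 h replicate 2, the lowest library (log2 fold change 2.17, adjusted p = 0.0528), and without 66 h replicate 1 (0.179) or replicate 2 (0.153). In the latter fits the lone 66 h library is assumed to vary like those of other times. Fits with no variance trend (0.0799), with the 18 and 66 h libraries alone (0.0827) or with the replicate block (0.0742) did not call it either. At 42 h malate synthase averaged 81.4 ± 43.3 FPKM, a log2 difference from 18 h of 1.64 (95% interval 0.33 to 2.95) that missed the threshold (Benjamini-Hochberg adjusted p = 0.16, limma). The difference of 66 h from 24 h, 1.75 in log2 (0.28 to 3.21), was not called either (0.182), but passed in a fit to those 5 libraries alone (0.0498) and with voom weights on the recovered reads (0.0204). In the order of the means, which was that of the times, no neighbouring pair was called. In the F test over the 4 times malate synthase missed the threshold (adjusted p = 0.0898) and passed it with a pseudocount of 10 (0.0489) and with voom weights (0.00793).

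Malate synthase and isocitrate lyase act in sequence, and their transcripts were closest to equal levels in the 66 h libraries. Malate synthase amounted to 0.234, 0.0585 and 0.181 times the FPKM of isocitrate lyase at 18 h and to 0.249, 0.209 and 0.597 times at 24 h. It was 0.257, 0.778 and 0.232 times at 42 h, and 1.22 and 0.817 times at 66 h. The 66 h ratios lay above all others, although the lower of them (0.817) and the highest at 42 h (0.778) were close. The libraries 24 h replicate 3 and 42 h replicate 2 stood apart from their groups.

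**Figure D4:**
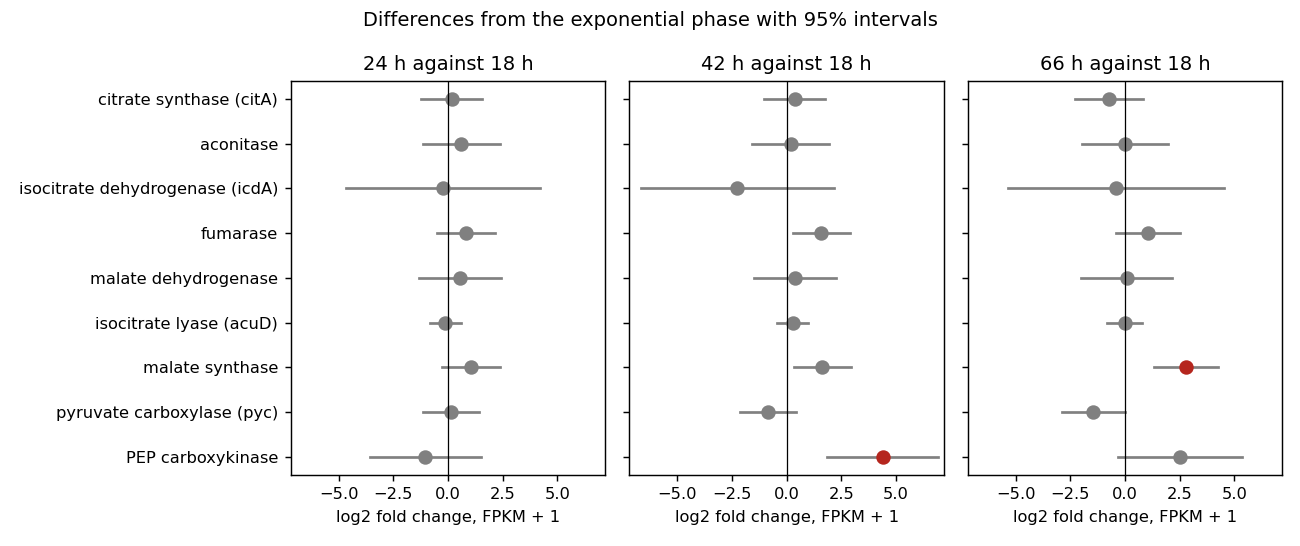
Log2 fold change on the FPKM + 1 scale (x axis) of each enzyme at 24, 42 and 66 h against 18 h, with 95% intervals from limma. Red points were called after Benjamini-Hochberg adjustment over all genes, and grey points were not. The 3 panels share the 18 h libraries. PEP carboxykinase at 42 h (4.39) and malate synthase at 66 h (2.80) were called, and icdA has the widest intervals.

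Of the 9 genes, 5 were grouped here as enzymes of the cycle. Among these, 0 were called in any of the 6 pairs of times or in the F test by limma, with or without voom weights. Without voom weights, the share of all genes called was 0.426% to 6.04% by pair and 8.03% in the F test. Without adjustment, limma gave p under 0.05 for 1 of their 30 pairwise tests, that of fumarase at 42 h against 18 h. Of all genes, 6.56% to 18.7% had such a p, depending on the pair. Citrate synthase (citA, An09g06680), the entry step of the cycle, was the most abundant of these with malate dehydrogenase. Its values were 69.0, 84.6 and 44.4 FPKM at 18 h and 96.7, 105 and 35.8 FPKM at 24 h. At 42 h they were 69.0, 50.1 and 164 FPKM, and at 66 h 22.6 and 63.5 FPKM. The groups overlapped throughout. The widest gap of means, from 94.3 ± 60.9 FPKM at 42 h (SD over 3 libraries) to 43.0 ± 28.9 at 66 h (SD over 2), was a log2 difference of -1.11 (95% interval -2.66 to 0.45, limma, Benjamini-Hochberg adjusted p = 0.943). The libraries of one time varied 2.28 times as much as counting error alone gives, the largest such value of the 9 genes, and 42 h replicate 3 held 19 reads against 8 and 6 in the other two.

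Aconitase (An08g10530), which turns citrate into isocitrate, had group means of 25.5 to 38.8 FPKM, close together beside their spread. It was measured at 35.3, 6.30 and 59.6 FPKM at 18 h and at 32.1, 55.9 and 28.5 FPKM at 24 h. At 42 h the values were 20.6, 39.8 and 25.7 FPKM, and at 66 h 17.9 and 33.2 FPKM. The lowest and the highest of the 11 values both belonged to 18 h, with 1 and 9 reads. The log2 fold change against 18 h was 0.60 at 24 h (95% interval -1.16 to 2.36), 0.18 at 42 h (-1.58 to 1.94) and 0.01 at 66 h (-1.96 to 1.98). Rises and falls of 2-fold lay within all 3 intervals and were not detectable at this depth.

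Isocitrate dehydrogenase (icdA, An02g12430), an enzyme that uses isocitrate as isocitrate lyase does, rested on 18 reads over all libraries. The sources used here do not say which form of isocitrate dehydrogenase this locus encodes. It was listed at 34.1, 0 and 64.0 FPKM at 18 h and at 24.8, 53.9 and 0 FPKM at 24 h. At 42 h it was listed at 19.9, 0 and 0 FPKM, and at 66 h at 8.66 and 9.15 FPKM, which is 1 read in each library. The groups overlapped in every pair of times, since 1 library at 18 h, 1 at 24 h and 2 at 42 h had no read. The log2 fold change at 42 h against 18 h was -2.26 with a 95% interval of -6.67 to 2.16, and no direction can be read from it. In every library isocitrate lyase exceeded icdA, whose FPKM came to at most 0.298 times that of isocitrate lyase. Other loci that may encode isocitrate dehydrogenase were not analysed, so this ratio does not compare the whole of the 2 branches.

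Fumarase (An12g07850), which adds water to fumarate to give malate, had its highest values at 42 h. The libraries stood at 42.5, 45.6 and 9.58 FPKM at 18 h and at 55.7, 50.5 and 41.2 FPKM at 24 h. They were at 89.4, 108 and 59.5 FPKM at 42 h and at 51.9 and 61.6 FPKM at 66 h. The 42 h libraries all lay above those of 18 and 24 h, and the 66 h libraries lay above those of 18 h. The log2 difference of 42 h from 18 h was 1.60 (95% interval 0.27 to 2.92) and was not called over all genes (limma, Benjamini-Hochberg adjusted p = 0.175), nor was it under any of 20 alternative settings (0.128 to 0.35). It came to 0.90 without 18 h replicate 3, which held 1 read. The replicates of fumarase varied 0.69 times as much as counting error alone gives.

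Malate dehydrogenase (An07g02160), which closes the cycle by turning malate into oxaloacetate, was scattered most at 24 h. It stood at 55.6, 74.8 and 31.3 FPKM at 18 h and at 15.2, 198 and 135 FPKM at 24 h. At 42 h it was at 48.8, 82.6 and 73.0 FPKM, and at 66 h at 84.8 and 33.6 FPKM. The lowest and the highest of the 11 values both came from 24 h, with 1 and 12 reads, and the groups overlapped in every pair. The log2 fold change at 24 h against 18 h was 0.55 (95% interval -1.32 to 2.42, limma, Benjamini-Hochberg adjusted p = 0.829).

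Of the symbols of a list of 17 for this pathway, 4 were found among the genes with a symbol in the reference table. They were citA, icdA, pyc and facB (An08g06580), which in Aspergillus nidulans encodes the activator of acetate utilization genes, those of the glyoxylate bypass included. The level of facB in FPKM was 87.5 ± 33.6 for 18 h, 54.2 ± 11.9 for 24 h and 43.1 ± 5.01 for 42 h (SD over 3 libraries each), and 62.8 ± 3.52 for 66 h (SD over 2). It was called in 0 of the 6 pairs and not in the F test (limma, Benjamini-Hochberg adjusted p = 0.507). Its unadjusted limma p was 0.0478 at 42 h against 18 h, where 18.1% of all genes had p under 0.05. Of these 4 genes, 0 were called in either direction, beside 0.426% to 6.04% of all genes by pair and 8.03% in the F test. This count does not show that their levels stayed the same.

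Among the 1329 other genes with a mean of at least 100 FPKM, 2 loci without a symbol had the pattern most like that of PEP carboxykinase over the 11 libraries, by Pearson's correlation of log2(FPKM + 1). An08g04820 (r = 0.943) averaged 126 and 148 FPKM at 18 and 24 h, and 564 and 331 FPKM at 42 and 66 h. An12g09550 (r = 0.926) averaged 500.04 and 339 FPKM at the early times, and 2013 and 1577 FPKM at the later ones. Both were higher at 42 h than at 66 h, as was PEP carboxykinase. Since they were chosen for this likeness, that is no separate result. Of the early times, An08g04820 was lower at 18 h, and An12g09550 and PEP carboxykinase at 24 h. The 11 libraries share 4 times, and the part of the correlation that comes from the times was not computed.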

How the data were processed

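Per the file headers, the authors deposited FPKM values per gene and library, in 1 table for each of 4 times. The submitters' processing notes name RSEM without a version. The sources used here name no aligner, build or annotation, and record no step that scales libraries to each other, so a few abundant transcripts can shift all other values. Values were joined by gene identifier, and 10417 identifiers matched RefSeq's gene table (assembly ASM285v2), the source of symbols. Members and lists were chosen with earlier results of these data known. Of the planned choices of further genes, that by protein similarity was not made, since no protein sequences were used here.

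Genes with at least 1 FPKM in at least 2 libraries (8693) were tested as log2(FPKM + 1), a scale that understates the change of low genes, with limma 3.58.1 in R 4.3.3: 1 fit to all 11 libraries with a mean per time and a variance trend, and Benjamini-Hochberg adjustment over all genes in each of the 6 pairs and the F test. Calls are at an adjusted p under 0.05. On simulated data, the size and recovery of changes were checked only for genes with a mean of at least 100 FPKM. Among the members only isocitrate lyase reaches this mean, so that check does not cover the others.

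Reads were recovered per gene as the largest step of which all low values are whole multiples (tolerance 0.06), after the relative depth of the libraries (1 to 1.59) had been taken from the most common ratio of low values. A step was found for 8059 of 8697 genes, with 21616 to 33848 reads per library over these genes. The sources do not say whether these values rest on every read obtained. If all reads of a gene shared a common factor, its reads would be undercounted. Intervals on reads are exact, at the 95% level, and cover counting error only. Beside the 9 members, the text names pathway genes by symbol and, for a member called by the F test, the 2 genes of mean FPKM of at least 100 most correlated with it.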

Additional observations from a re-analysis of the deposited data

How the results depend on the processing

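Of 63 results of single genes (54 pairwise tests and 9 F tests), 4 were called and 57 of the other 59 were called under none of 20 alternative settings (19 for the F test). No called difference changed its direction, while 21 of the uncalled differences changed sign under at least 1 setting. The number of the 9 genes called at 42 h against 18 h was 0, not 1, with a pseudocount of 0.1, without a filter on low values, with only the libraries of the groups compared and with the replicate block, and 0 to 1 without single libraries. At 66 h against 18 h, the fit with no variance trend, the fit to the libraries compared alone and the replicate block each gave 0, and leaving out single libraries gave 0 to 1. At 42 h against 24 h it was 0 to 1 without single libraries. At 66 h against 24 h it was 1, not 0, with only the libraries compared and with voom weights on the recovered reads, an alternative chosen after seeing the data. In the F test it was 0 with a pseudocount of 0.1 and with the replicate block, 2 with a pseudocount of 10 and with voom weights, and 0 to 1 without single libraries. The replicate block gave adjusted p of 0.0782 and 0.0779 for PEP carboxykinase (42 h against 18 h, and F test) and 0.0742 for malate synthase. The deviations of same-numbered libraries of different times had correlations of -0.106 to 0.134 over 15 pairs, with a mean of 0.0218. Over 30 pairs with different numbers the mean was -0.0109. In libraries of so few reads, counting error could hide a shared culture or batch. This check therefore cannot decide whether the numbers pair the libraries, and the calls lost with the replicate block stay in doubt. Over all genes, the planned settings called 300 to 830 genes in the F test, against 698, and voom weights, which are not among them, called 1042 of 8059. They called 249 to 608 genes at 42 h against 18 h (main fit 522) and 220 to 787 at 66 h against 18 h (525). Against 24 h they called 132 to 496 at 42 h (405) and 155 to 552 at 66 h (481). The number of genes called thus moved with the settings over all genes too. Rescaling each library to the same FPKM sum moved the median of the 9 genes at 42 h against 18 h from 0.37 to 0.50 in log2. With a median of 6 reads per value, changes of up to several-fold in most of these genes were not detectable.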
